A study of Mus musculus with 6 samples.

Results

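Growth factor receptor tyrosine kinases were followed in 6 RNA-seq libraries of the mouse C2C12 line, comparing dCas9-KRAB cells with dCas9-KRAB-En5 cells. The 10 receptors were listed by name, with earlier results of these data known, and no value was used to pick them: 7 receptors of mesenchymal and myoblast cells (*Pdgfra*, *Pdgfrb*, *Fgfr1*, *Fgfr4*, *Met*, *Egfr* and *Insr*) and 3 of myeloid cells (*Csf1r*, *Mertk* and *Axl*), out of 23231 genes with counts in at least 1 library. All 10 had counts somewhere, and 8 passed the low-count filter and were tested. C2C12 is an immortal line of muscle precursors, and its cells join into multinucleate myotubes in low serum. Both groups carried dCas9-KRAB, a catalytically dead Cas9 fused to a repressor domain and delivered by lentivirus, were selected with puromycin and were harvested on day 5 in differentiation medium with horse serum. The control group (dCas9-KRAB, n = 3) had no enhancer guide, and the dCas9-KRAB-En5 group (n = 3) also had 2 guides against Myog-En5, an enhancer of the myogenic factor gene *Myog*. The labels give the tissue as muscle and the cells as myoblasts, and do not say whether the replicates were separate cultures, so that p-values measure only the spread between these libraries. The guides that define the comparison are shown with the PAM in capitals, as the study's guide list gives them.
Myog-En5-sgRNA1: gaaggggttactgtcggcagAGG
Myog-En5-sgRNA2: gaccggaagattgaaccactGGG

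Receptor tyrosine kinases are single-pass membrane proteins whose intracellular kinase is switched on when a ligand brings receptor chains together. The phosphorylated tail then recruits adaptors such as GRB2, GAB and IRS proteins, which feed the RAS-ERK and PI3K pathways, while SPRY, SPRED, DUSP, SOCS and CBL proteins damp the signal. In muscle, FGF and HGF receptors are known from myoblast growth and migration, PDGF receptors mark fibroblastic and perivascular cells, and the CSF1 receptor is the growth and survival receptor of macrophages.

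The libraries held 31831093 to 73988425 counts. *Myog* had 1065, 1224 and 1118 TPM (a transcript level scaled by gene length and library size) in dCas9-KRAB replicates 1, 2 and 3 and 0.379, 0 and 0 TPM in dCas9-KRAB-En5, and fell by 13.35 on the log2 scale (edgeR adjusted p = 5.3e-05). Replicate 3 of dCas9-KRAB-En5 stood apart, with 13991 genes detected against 17084 to 19395 in the other libraries. It had 25.8% of its counts on ribosomal protein genes against 10.8% to 19.4%. Results of the tested receptors, and of some other genes, are therefore also given without it. The labelled cell type was checked against 7 marker lists. The summed level of 20 macrophage markers was 6576 to 9132 TPM in dCas9-KRAB and 13870 to 22170 TPM in dCas9-KRAB-En5, and *Mrc1* and *Cd163* had no counts in any library. *Lyz2* (lysozyme) made up 28.8% to 52.7% of the sum in dCas9-KRAB and 50.0% to 66.2% in dCas9-KRAB-En5, and without it, a choice made after its values were seen, the sums were 4317 to 4706 TPM and 5626 to 8963 TPM. The markers did not move as one: of 18 tested, 11 had positive and 7 negative log2 fold changes. Without overlap 4 lay higher and 3 lower (*Fcgr1*, *Aif1* and *Mpeg1*, at -1.84, -1.63 and -1.10), against 7.76% and 19.7% of all genes tested. *Adgre1* alone was called, higher. Macrophage genes were thus abundant in libraries labelled as myoblasts, in both groups. The 10 myotube markers summed to 16390 to 18570 TPM in dCas9-KRAB and 6.26 to 16.4 TPM in dCas9-KRAB-En5, and all 10 fell, where over all 14378 genes tested 4.67% were called lower and 1.52% higher. The 10 myoblast markers summed to 594 to 2154 TPM and 15.02 to 43.5 TPM, with 7 of 9 tested lower past the cutoffs. The 15 fibroblast and mesenchymal markers summed to 91.1 to 294 TPM and 31.6 to 59.4 TPM, with 4 of 9 tested lower past the cutoffs. Endothelial markers summed to at most 12.7 TPM in any library, epithelial markers to at most 6.29 TPM and T and B cell markers to at most 2.18 TPM. Of these 3 lists 3, 1 and 1 genes were tested and the main edgeR fit called none, with 1, 1 and 1 at an unadjusted p under 0.05. DESeq2 called 1 T and B cell gene lower, and edgeR with a replicate block called 1 epithelial gene lower. Over all genes, an unadjusted p under 0.05 was reached by 16.3% lower and 16.6% higher, DESeq2 called 8.66% lower and 5.88% higher of the 16436 genes it gave an adjusted p, and the replicate block called 6.79% lower and 3.94% higher. The part of these cell type markers in the receptor results was not tested except where a value is given beside the result.

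*Csf1r* was by far the most abundant of the 10 receptors in every library, and its level overlapped between the groups. *Csf1r*, the receptor for CSF1 and IL34, was at 132, 443 and 323 TPM in dCas9-KRAB and at 505, 668 and 186 TPM in dCas9-KRAB-En5. The lowest library was dCas9-KRAB replicate 1 and the next lowest was dCas9-KRAB-En5 replicate 3. The means were 299 ± 156 TPM and 453 ± 245 TPM (SD, n = 3), a difference of 0.32 on the log2 scale with a 95% interval of -0.82 to 1.46 (edgeR adjusted p = 0.702). This interval holds both no difference and a rise above the cutoff used here, and is too wide to show that the groups were alike. Without dCas9-KRAB-En5 replicate 3 the difference was 0.37 (edgeR adjusted p = 0.514). Within same-numbered pairs, the log2 ratio of TPM + 0.1 was 1.93 in pair 1, 0.59 in pair 2 and -0.80 in pair 3. Among all genes, *Csf1r* ranked 355 to 832 by TPM in dCas9-KRAB and 245 to 562 in dCas9-KRAB-En5. Per 1000 TPM of macrophage markers, *Csf1r* was at 14.5, 67.3 and 43.0 TPM in dCas9-KRAB and at 22.8, 48.2 and 11.2 TPM in dCas9-KRAB-En5, so that this ratio overlapped as well, as it did without *Lyz2* in the sum (30.7, 94.6 and 68.7 TPM, and 56.3, 96.4 and 33.0 TPM). As in all bulk samples, fewer cells of a type and less RNA per cell cannot be told apart. *Csf1r* lies at chr18:61100598-61132149 on the plus strand of GRCm38, 15536 bases after *Pdgfrb*. The gene *Hmgxb3* on the opposite strand covers 15.1% of its exon length and was at 1.02 to 9.201 TPM. Whether the counting used strand is not given in the sources used here. The part of this overlap in the *Csf1r* counts was not tested.

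*Axl* was the only receptor of the 10 that passed both cutoffs (edgeR adjusted p of 0.01 or less, and a log2 fold change of 1 or more in size). *Axl*, whose protein binds GAS6 and acts in the clearance of dying cells, and which fibroblasts express too, had 19.2, 79.7 and 53.9 TPM in dCas9-KRAB and 3.33, 2.92 and 3.44 TPM in dCas9-KRAB-En5. The highest dCas9-KRAB-En5 library stood well under the lowest control. The means were 50.9 ± 30.3 TPM and 3.23 ± 0.274 TPM (SD, n = 3), and *Axl* fell by 3.92 on the log2 scale (SE 0.64, 95% interval -5.32 to -2.52, edgeR adjusted p = 0.00236). The 3 pairs gave -2.49, -4.72 and -3.93. The call was lost without either of 2 control libraries, though the fold was not: without dCas9-KRAB replicate 1 the log2 fold change was -4.33 (edgeR adjusted p = 0.010, just above the cutoff) and without replicate 2 it was -3.58 (edgeR adjusted p = 0.012), while without dCas9-KRAB-En5 replicate 3 it was -4.60 (edgeR adjusted p = 0.000399). *Axl* thus moved apart from *Csf1r*, with which it is grouped as a myeloid receptor. Per 1000 TPM of macrophage markers it was at 2.10, 12.1 and 7.17 TPM in dCas9-KRAB and at 0.150, 0.210 and 0.207 TPM in dCas9-KRAB-En5. Per 1000 TPM of fibroblast and mesenchymal markers it was at 211, 271 and 364 TPM and at 56.0, 71.2 and 109 TPM. Neither ratio overlapped between the groups, nor did the first without *Lyz2* in the sum (4.45, 17.0 and 11.4 TPM, and 0.371, 0.421 and 0.611 TPM). No ratio to the myoblast markers was taken. The 9 of them tested had a median log2 fold change of -6.55, a larger fall than that of *Axl*. *Axl* lies at chr7:25757273-25788705 on the minus strand.

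*Mertk*, the receptor of the same family that marks mature tissue macrophages, was close to the limit of detection. It had 10, 8 and 6 counts in dCas9-KRAB and 12, 26 and 0 counts in dCas9-KRAB-En5, where a count of 0 allows up to 3 counts, and did not pass the low-count filter. Its mean was 0.0551 ± 0.0275 TPM and 0.161 ± 0.179 TPM (SD, n = 3). No difference was detectable at this depth (DESeq2 adjusted p = 0.705 without a filter). Without dCas9-KRAB-En5 replicate 3 *Mertk* passed the filter, with a log2 fold change of 1.47 (edgeR adjusted p = 0.233). *Tyro3*, the remaining member of this family and chosen here after its values were seen, had 0.719, 2.27 and 1.44 TPM in dCas9-KRAB and 0.206, 0.200 and 0.374 TPM in dCas9-KRAB-En5 (log2 fold change -2.32, edgeR adjusted p = 0.0526). Its groups did not overlap but it did not pass the main test. It passed with DESeq2 (-2.32, adjusted p = 0.00993) and without dCas9-KRAB-En5 replicate 3 (-3.44, edgeR adjusted p = 0.0019). With a replicate block it did not (edgeR adjusted p = 0.0158).

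**Figure D1:**
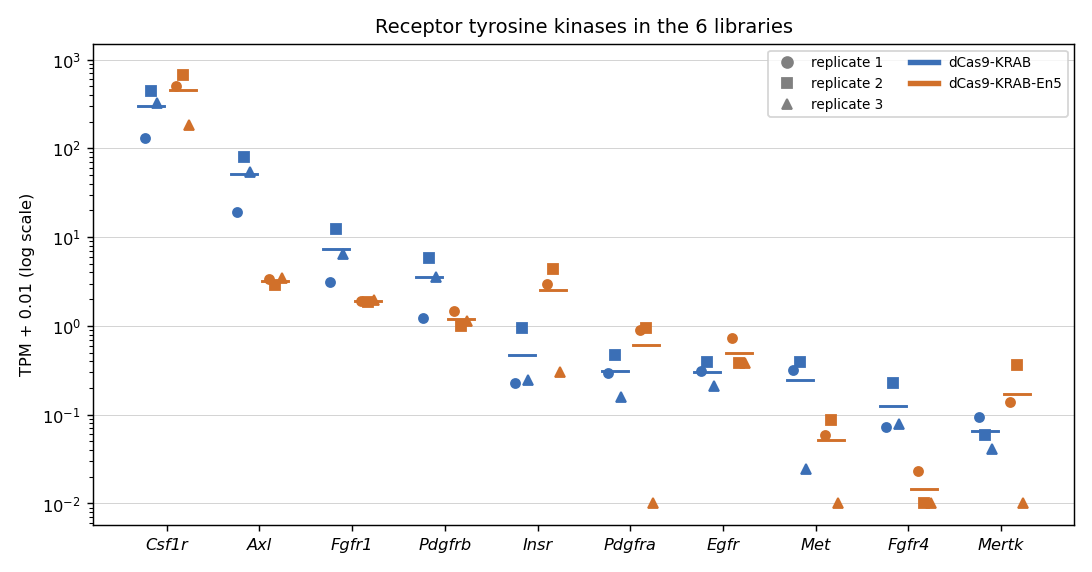
Level of the 10 receptors in each library, as TPM + 0.01 on a log axis, ordered by their mean in dCas9-KRAB; symbols are replicates and bars are means of 3 libraries. *Csf1r* is highest in every library, *Axl* drops from 19.2 to 79.7 TPM to 2.92 to 3.44 TPM, and *Pdgfra*, *Met*, *Fgfr4* and *Mertk* sit at 0 TPM in dCas9-KRAB-En5 replicate 3.

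Taken as a set, the receptors of every library were mostly *Csf1r*, and the second component of the controls was *Axl*. The summed level of the 10 receptors was 157, 543 and 388 TPM in dCas9-KRAB and 516, 680 and 193 TPM in dCas9-KRAB-En5. *Csf1r* made up 84.2%, 81.5% and 83.4% of that sum in the controls and 97.8%, 98.2% and 96.3% in dCas9-KRAB-En5. *Axl* made up 12.2%, 14.7% and 13.9% and then 0.645%, 0.429% and 1.78%. The ratio of *Csf1r* to *Axl* was 6.89, 5.56 and 5.999 in the controls and 152, 229 and 54.0 in dCas9-KRAB-En5, so this ratio varied less between the controls than either level did. The 7 mesenchymal and myoblast receptors together made up 3.50%, 3.76% and 2.74% of the sum in dCas9-KRAB and 1.55%, 1.27% and 1.94% in dCas9-KRAB-En5. Shares are bound to sum to 100%, so that a lower *Axl* alone raises the share of *Csf1r*.

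**Figure D2:**
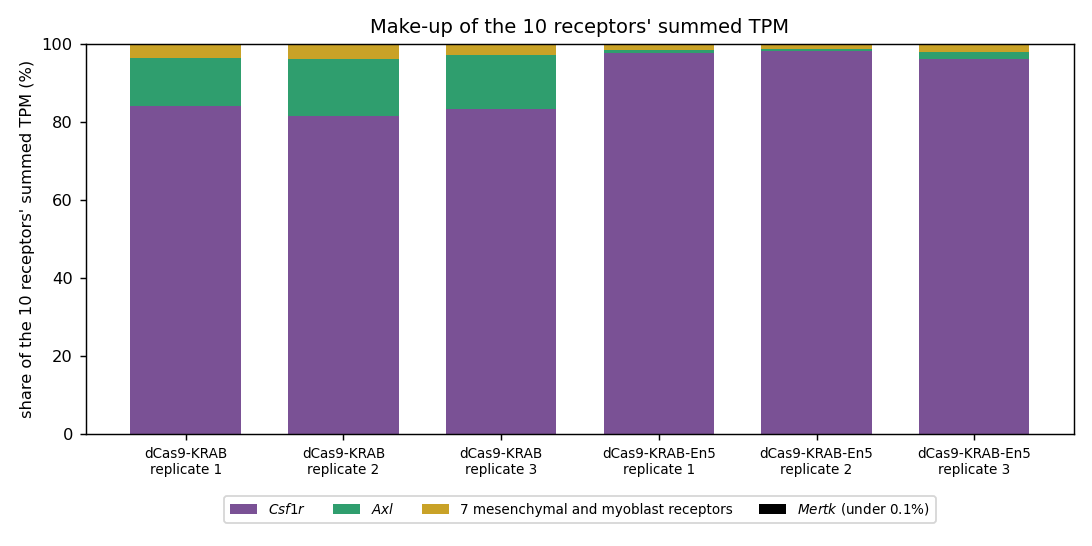
Share of the 10 receptors' summed TPM in each library, in percent, as stacked bars. *Csf1r* takes 81.5% to 84.2% in the 3 dCas9-KRAB libraries and 96.3% to 98.2% in the 3 dCas9-KRAB-En5 libraries, and *Mertk* is too small to be seen.

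None of the 7 mesenchymal and myoblast receptors passed both cutoffs, with 6 of them tested, 3 of negative and 3 of positive log2 fold change. At an unadjusted p under 0.05 there were 3 lower (*Fgfr1*, *Pdgfrb* and *Met*) and 1 higher (*Insr*), against 16.3% and 16.6% of all genes. DESeq2 called none of the 7. The 1 lower and 0 higher calls among the 8 receptors tested, against 4.67% lower and 1.52% higher over all genes, are too few to be set apart from this background. By the spread alone, *Axl* and *Fgfr1* of the tested receptors lay lower in dCas9-KRAB-En5 with no overlap in TPM, and none lay higher. Over all genes tested, 19.7% lay lower and 7.76% higher without overlap.

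*Fgfr1*, the main FGF receptor of myoblasts and fibroblasts, had 3.13, 12.3 and 6.42 TPM in dCas9-KRAB and 1.90, 1.87 and 1.96 TPM in dCas9-KRAB-En5. All 3 dCas9-KRAB-En5 libraries were alike and under the lowest control. The means were 7.27 ± 4.62 TPM and 1.91 ± 0.0441 TPM (SD, n = 3), with a log2 fold change of -1.88 (SE 0.57, edgeR adjusted p = 0.0409). It missed the cutoff, and passed it without dCas9-KRAB-En5 replicate 3 (-2.52, edgeR adjusted p = 0.00409). *Pdgfrb*, the PDGF receptor of pericytes and fibroblasts, had 1.20, 5.77 and 3.53 TPM and then 1.46, 0.980 and 1.12 TPM (log2 fold change -1.54, SE 0.63, edgeR adjusted p = 0.111). Here dCas9-KRAB replicate 1 fell among the dCas9-KRAB-En5 libraries. Without dCas9-KRAB-En5 replicate 3 the log2 fold change of *Pdgfrb* was -2.07 (edgeR adjusted p = 0.0217). Set against the fibroblast and mesenchymal markers, neither receptor lay lower in dCas9-KRAB-En5. Per 1000 TPM of those markers, *Fgfr1* was at 34.4, 41.7 and 43.4 TPM in dCas9-KRAB and at 31.9, 45.6 and 62.0 TPM in dCas9-KRAB-En5. *Pdgfrb* was at 13.2, 19.6 and 23.88 TPM and at 24.6, 23.92 and 35.6 TPM, so that its lowest dCas9-KRAB-En5 library stood just above its highest control. No ratio to the myoblast markers was taken for either receptor. The 9 of those markers tested had a median log2 fold change of -6.55, a larger fall than that of *Fgfr1* or *Pdgfrb*.

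*Fgfr4* and *Met*, receptors known from growing and migrating myoblasts, were scarce in both groups. *Fgfr4* had 6, 29 and 11 counts in dCas9-KRAB and 1, 0 and 0 counts in dCas9-KRAB-En5. The groups did not overlap, and the pooled counts, scaled by library size, were 27.3-fold lower, with a 95% counting interval of 4.66 to 1100 that covers counting error only. *Fgfr4* did not pass the low-count filter, and DESeq2, run on all genes, gave an adjusted p of 0.0738. *Met*, the HGF receptor, had 64, 109 and 5 counts and then 8, 10 and 0 counts, which are 0.307, 0.379 and 0.0145 TPM and 0.0492, 0.0768 and 0 TPM. The groups overlapped through dCas9-KRAB replicate 3, and the log2 fold change was -2.89 (SE 1.28, edgeR adjusted p = 0.141). Without dCas9-KRAB-En5 replicate 3 it was -2.47 (edgeR adjusted p = 0.111).

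*Insr*, *Egfr* and *Pdgfra* had higher means in dCas9-KRAB-En5, none past the cutoff. *Insr*, the insulin receptor, had 0.217, 0.927 and 0.237 TPM in dCas9-KRAB and 2.94, 4.41 and 0.289 TPM in dCas9-KRAB-En5. Replicate 3 of dCas9-KRAB-En5 lay among the controls, and the other two lay above them. The log2 fold change was 2.06 (SE 0.73, edgeR adjusted p = 0.0728), and without that replicate it was 2.43 (edgeR adjusted p = 0.00688). *Egfr*, the receptor of EGF, had 0.299, 0.380 and 0.201 TPM and then 0.729, 0.370 and 0.374 TPM (log2 fold change 0.66, 95% interval -0.67 to 1.99, edgeR adjusted p = 0.484). Without dCas9-KRAB-En5 replicate 3 its log2 fold change was 0.34 (edgeR adjusted p = 0.647). *Pdgfra*, the PDGF receptor that marks fibro-adipogenic progenitors of muscle, had 0.283, 0.467 and 0.147 TPM and then 0.890, 0.930 and 0 TPM. Its counts were 77, 175 and 66, and then 189, 158 and 0, so that dCas9-KRAB-En5 held both the highest and the lowest library. The log2 fold change of 0.53 (95% interval -1.86 to 2.92, edgeR adjusted p = 0.767) was -0.36 with a replicate block. Without dCas9-KRAB-En5 replicate 3 it was 1.025 (edgeR adjusted p = 0.149).

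The order of the receptors by mean TPM was much the same in both groups at the top. In dCas9-KRAB it ran *Csf1r*, *Axl*, *Fgfr1*, *Pdgfrb*, *Insr*, *Pdgfra*, *Egfr*, *Met*, *Fgfr4* and *Mertk*. Ranges of neighbours were separate between *Csf1r* and *Axl*, between *Axl* and *Fgfr1*, and between *Pdgfrb* and *Insr*, and overlapped otherwise. In dCas9-KRAB-En5 it ran *Csf1r*, *Axl*, *Insr*, *Fgfr1*, *Pdgfrb*, *Pdgfra*, *Egfr*, *Mertk*, *Met* and *Fgfr4*. There the ranges were separate between *Csf1r* and *Axl*, *Fgfr1* and *Pdgfrb*, *Pdgfrb* and *Pdgfra*, and *Egfr* and *Mertk*. The genes whose centred log2(TPM + 1) profile over the 6 libraries was nearest that of *Csf1r*, of 11468 genes with a mean of at least 1 TPM, were *Cnnm3* (distance 0.244), *Sh2b2* (0.247) and *Slc8b1* (0.262). For *Pdgfra* they were *Utp11* (0.132), *Ccdc34* (0.195) and *Rad51c* (0.204). The distances rest on 6 libraries and are given as a description.

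**Figure D3:**
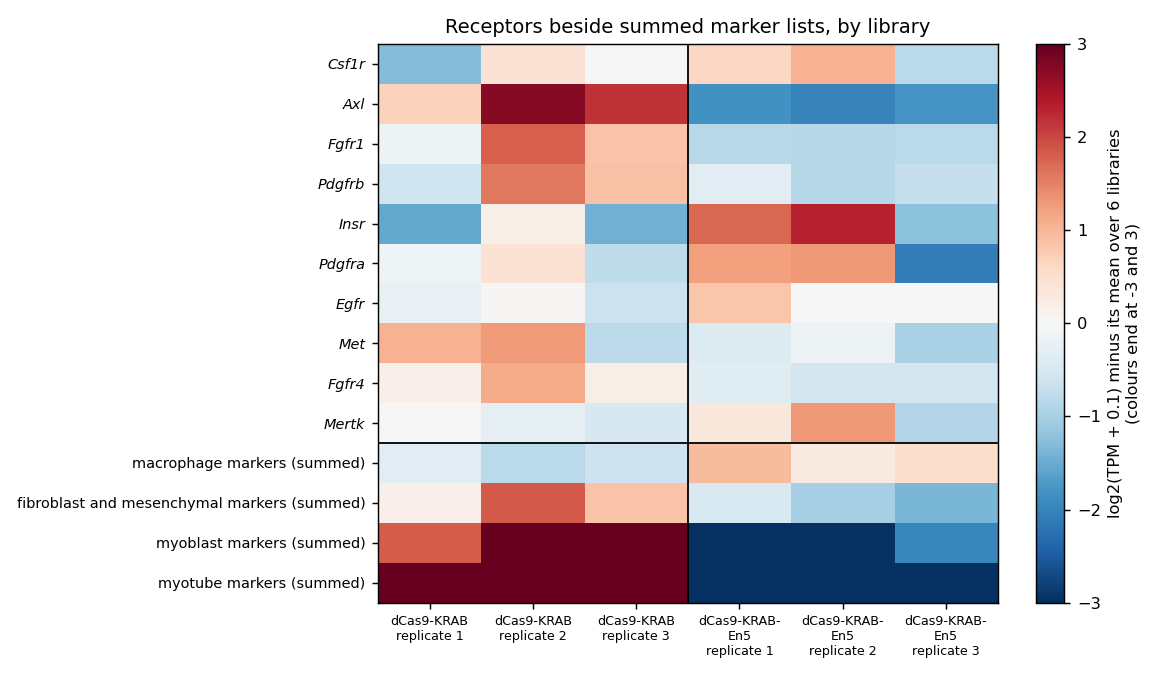
The 10 receptors and 4 summed marker lists by library, each row as log2(TPM + 0.1) minus its mean over the 6 libraries, with colours ending at -3 and 3. *Axl* and *Fgfr1* are low in all 3 dCas9-KRAB-En5 libraries, as are the fibroblast, myoblast and myotube sums, while *Csf1r*, *Insr* and *Pdgfra* are high in replicates 1 and 2 and low in replicate 3.

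Beside the 10 receptors, 48 other receptor tyrosine kinases were examined, of which 40 had counts and 22 were tested. Of these, 2 fell, *Ddr1* and *Ddr2*, and none rose, against 4.67% lower and 1.52% higher over all genes. The median log2 fold change of the 22 was -2.01, against 0.08 over all genes. At an unadjusted p under 0.05 there were 10 lower and 4 higher, DESeq2 called 9 lower and 2 higher, and with a replicate block 7 were called lower and 1 higher, where the shares of all genes were 16.3% and 16.6%, 8.66% and 5.88%, and 6.79% and 3.94%. *Ddr1* and *Ddr2* are receptors for collagen. *Ddr1* had 5.96, 20.5 and 13.0 TPM in dCas9-KRAB and 1.51, 1.37 and 1.32 TPM in dCas9-KRAB-En5 (log2 fold change -3.23, SE 0.57, edgeR adjusted p = 0.00371). *Ddr2* had 2.88, 3.36 and 1.57 TPM and then 0.428, 0.210 and 0.0896 TPM (log2 fold change -3.68, SE 0.59, edgeR adjusted p = 0.00215). No library of either gene crossed between the groups. The *Ddr1* call was lost without any 1 of the 3 controls (edgeR adjusted p = 0.0115, 0.0224 and 0.0123) and without dCas9-KRAB-En5 replicate 2 (edgeR adjusted p = 0.0126), at log2 fold changes of -3.60 to -2.90. The *Ddr2* call was lost without dCas9-KRAB replicate 1 or 2 (edgeR adjusted p = 0.0166 and 0.0121), at -3.61 and -3.58.

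**Figure D4:**
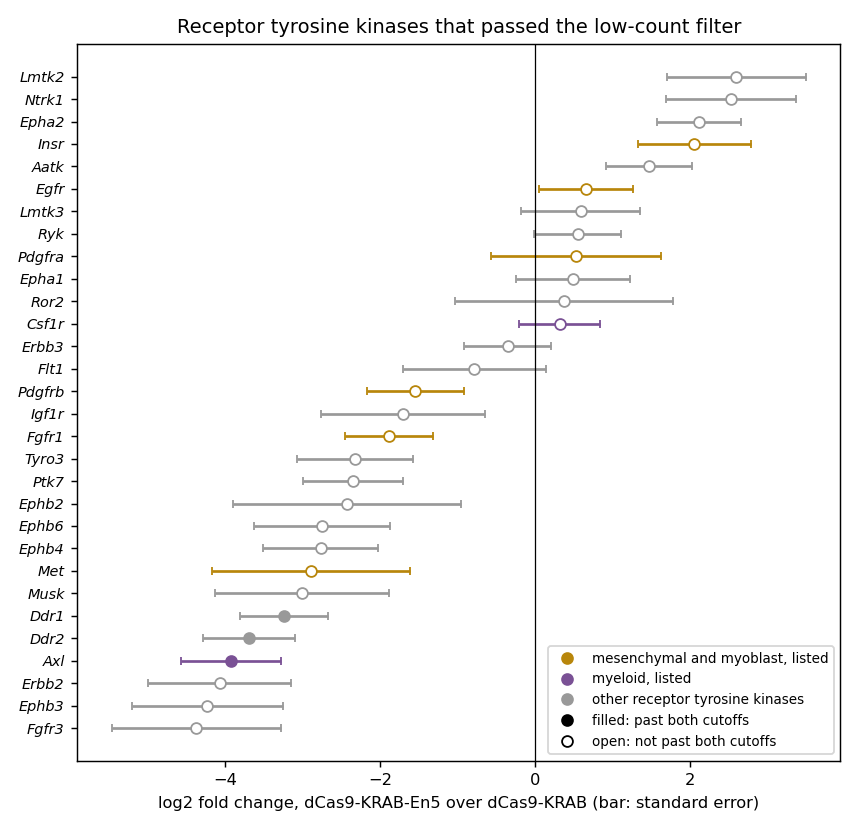
Log2 fold change of dCas9-KRAB-En5 over dCas9-KRAB for the 8 listed and 22 other receptor tyrosine kinases that were tested, with bars for the standard error. Filled points passed both cutoffs, which are *Axl*, *Ddr1* and *Ddr2*, all lower.

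Upstream sequences are shown for these 3 receptors, the ones that fell together, as the 250 bases before the start in RefSeq (GRCm38.p6), written 5′ to 3′ with matches to the E-box CANNTG, the motif of MYOD and MYOG, in capitals. The window for *Axl* is chr7:25788734-25788983 on the minus strand, and that for *Ddr2* is chr1:170088945-170089194 on the minus strand. For *Ddr1* it is chr17:35704600-35704849 on the minus strand, at its most upstream of 4 listed starts. The *Ddr2* window lies within the annotated gene (chr1:169972307-170110762), so that it is not upstream of the whole gene.
Axl: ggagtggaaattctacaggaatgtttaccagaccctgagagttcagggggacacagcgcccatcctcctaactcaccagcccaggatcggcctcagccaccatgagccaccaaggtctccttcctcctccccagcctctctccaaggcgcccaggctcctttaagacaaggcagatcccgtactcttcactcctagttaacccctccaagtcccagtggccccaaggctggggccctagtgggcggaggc
Ddr2: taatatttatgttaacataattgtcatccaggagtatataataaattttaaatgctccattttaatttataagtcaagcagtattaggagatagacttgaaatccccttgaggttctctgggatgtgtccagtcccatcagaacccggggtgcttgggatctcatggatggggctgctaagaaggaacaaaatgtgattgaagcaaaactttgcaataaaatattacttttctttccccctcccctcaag
Ddr1: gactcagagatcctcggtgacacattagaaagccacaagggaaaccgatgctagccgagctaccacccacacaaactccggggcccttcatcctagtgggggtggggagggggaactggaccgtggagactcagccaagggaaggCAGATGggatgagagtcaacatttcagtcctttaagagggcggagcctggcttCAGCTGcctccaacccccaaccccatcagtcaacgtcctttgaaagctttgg
*Axl* and *Ddr2* held no match, and *Ddr1* held 2, of which 1 was CAGCTG. Sequence upstream of the whole annotated *Ddr2* gene was not examined. The E-box letters read the same on both strands and were found in 66.2% of 32851 such windows of all genes, and the narrower CAGCTG, which they include, in 13.0%. Of the 6 listed receptors with a window in the table, *Fgfr4* held 2 matches, *Met* and *Pdgfra* 1 each, and *Axl*, *Egfr* and *Mertk* none. The AP-1 motif TGANTCA was in the *Met* window and in 6.75% of all windows. The *Fgfr4* and *Met* windows run past the annotated gene starts, at chr13:55152640 and chr6:17463800. Their E-box and AP-1 matches lie after those starts, within the annotated genes. *Csf1r*, *Pdgfrb*, *Fgfr1* and *Insr* were not in the table.

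Of 38 ligands of the listed receptors, 27 had counts and 16 were tested. Of these 3 fell, *Ins2*, *Fgf21* and *Pdgfd*, and none rose, against 4.67% lower and 1.52% higher over all genes, with a median log2 fold change of -0.44. At an unadjusted p under 0.05 there were 6 lower and 3 higher, against 16.3% and 16.6% of all genes. DESeq2 called 5 lower and 1 higher, against 8.66% and 5.88% of all genes. *Fgf21*, a hormone-like FGF released by stressed muscle and liver, was at 31.2, 65.7 and 51.4 TPM and then 0.695, 0.310 and 0.322 TPM (log2 fold change -6.91, SE 0.64, edgeR adjusted p = 5.3e-05). *Ins2* had 749, 1262 and 1356 counts in dCas9-KRAB and none in dCas9-KRAB-En5, at least 220-fold lower against a floor of 3 counts per library. The annotated *Ins2* gene spans chr7:142678656-142743381 with 6 merged exons, and the counts do not tell which exons were read. *Pdgfd*, a ligand of PDGFRB, had 122, 47 and 50 counts and then none, at least 17.3-fold lower.

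Both ligands of CSF1R were lower in dCas9-KRAB-En5 without overlap while the receptor itself overlapped. Of the 16 ligands tested, 6 lay lower and 0 higher without overlap, against 19.7% and 7.76% of all genes tested. *Csf1* was at 4.45, 22.4 and 9.18 TPM in dCas9-KRAB and at 1.88, 1.07 and 1.67 TPM in dCas9-KRAB-En5 (log2 fold change -2.86, SE 0.66, edgeR adjusted p = 0.0135). *Il34* was at 2.73, 7.73 and 8.52 TPM and then 0.337, 0.421 and 0.848 TPM (log2 fold change -3.37, SE 0.81, edgeR adjusted p = 0.0167). Both missed the cutoff, and passed it with a replicate block, where *Csf1* gave -2.75 (edgeR adjusted p = 0.00604) and *Il34* gave -3.62 (edgeR adjusted p = 0.00104). With them the block called 5 ligands lower and none higher, against 6.79% and 3.94% of all genes. Without dCas9-KRAB-En5 replicate 3 both passed as well, at edgeR adjusted p = 0.00227 and 0.000658.

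The ligands of AXL and MERTK did not fall with *Axl*. *Gas6* was at 1.75, 2.51 and 1.20 TPM and then 3.54, 1.41 and 3.52 TPM (log2 fold change 0.77, SE 0.68, edgeR adjusted p = 0.464). *Pros1*, which codes for protein S, was at 7.69, 4.92 and 3.82 TPM and then 37.9, 44.0 and 4.81 TPM (log2 fold change 1.94, SE 0.56, edgeR adjusted p = 0.0352). In *Pros1*, dCas9-KRAB-En5 replicate 3 lay among the controls, and without it the gene passed both cutoffs (2.26, edgeR adjusted p = 0.00171). *Pdgfa* was at 2.65, 4.14 and 1.99 TPM and then 10.5, 10.7 and 3.84 TPM (log2 fold change 1.27, edgeR adjusted p = 0.0819). A gene on the opposite strand covers 26.1% of the exon length of *Pdgfa*. *Pdgfb* was at 2.33, 13.6 and 9.42 TPM and then 33.5, 36.1 and 8.47 TPM (log2 fold change 1.32, edgeR adjusted p = 0.133). For both PDGF genes replicate 3 again lay among the controls. *Hgf*, the ligand of MET, stayed at or under 0.513 TPM in every library, and its log2 fold change of -0.23 changed sign with the setting. *Igf1* had 7, 0 and 29 counts and then none, and *Igf2* was not analysed here.

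**Figure D5:**
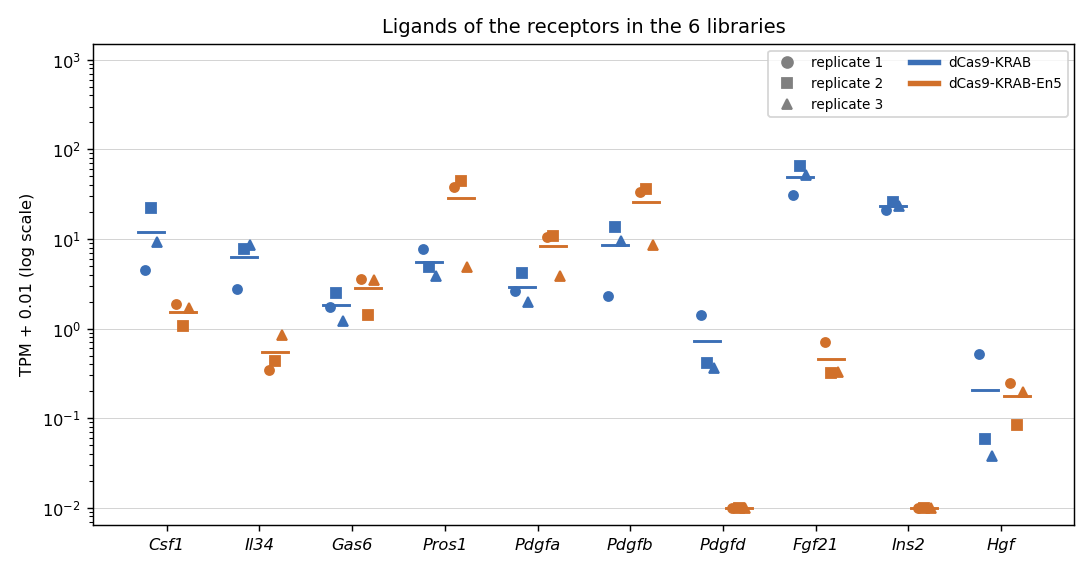
Level of 10 ligands of the listed receptors in each library, as TPM + 0.01 on a log axis, with symbols for replicates and bars for means of 3 libraries. *Fgf21*, *Ins2* and *Pdgfd* are the called ligands, all lower, and *Csf1* and *Il34* lie lower in all 3 dCas9-KRAB-En5 libraries.

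Downstream of the receptors, the main fit called a small number of genes, and all of them were higher in dCas9-KRAB-En5. Of 20 adaptors, 18 were tested, and 1 rose and none fell, against 1.52% higher and 4.67% lower over all genes, with a median log2 fold change of 0.73. The adaptor that rose was *Gab2*, which couples receptors to PI3K, at 2.05, 4.25 and 1.66 TPM and then 24.5, 41.6 and 5.19 TPM (log2 fold change 2.78, SE 0.55, edgeR adjusted p = 0.00644). At an unadjusted p under 0.05 there were 1 lower and 7 higher adaptors, against 16.3% and 16.6% of all genes. DESeq2 called 1 lower and 4 higher, against 8.66% and 5.88%. The replicate block called 3 higher, against 3.94% of all genes, adding *Sos1* and *Pik3r1*, which are named for that reason.

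Of 22 feedback and negative regulators, 21 were tested, and 4 rose and none fell, against 1.52% higher and 4.67% lower over all genes, with a median log2 fold change of 1.38. *Dusp4*, a nuclear phosphatase of ERK, was at 2.34, 10.8 and 7.33 TPM and then 197, 251 and 35.4 TPM (log2 fold change 4.19, SE 0.66, edgeR adjusted p = 0.00187). *Socs3*, an inhibitor of cytokine receptors, was at 15.1, 65.5 and 58.8 TPM and then 1109, 532 and 185 TPM (log2 fold change 3.41, SE 0.68, edgeR adjusted p = 0.00656). *Spred1* and *Spred3*, inhibitors of the RAS-ERK pathway, had log2 fold changes of 2.89 (edgeR adjusted p = 0.00778) and 2.71 (edgeR adjusted p = 0.00494). In all 4 the lowest dCas9-KRAB-En5 library was replicate 3, and it was still above the highest control. At an unadjusted p under 0.05 there were 3 lower and 10 higher, against 16.3% and 16.6% of all genes. DESeq2 called 2 lower and 7 higher, against 8.66% and 5.88%. The replicate block called 5 higher, against 3.94% of all genes, adding *Cbl* (2.35, edgeR adjusted p = 0.00952), named for that reason. *Spry1*, another inhibitor of the RAS-ERK pathway and also named after its values were seen, had 15, 55 and 44 counts in dCas9-KRAB and none in dCas9-KRAB-En5, at least 7.05-fold lower against the same floor. It missed the cutoff (edgeR adjusted p = 0.0129) and passed it without dCas9-KRAB-En5 replicate 3 (edgeR adjusted p = 0.0046), with no low-count filter (edgeR adjusted p = 0.00329) and with DESeq2 (adjusted p = 0.000418).

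Of 9 genes known as ERK targets, all tested, 2 rose and none fell, against 1.52% higher and 4.67% lower over all genes, with a median log2 fold change of 0.98. *Etv1* was at 0.371, 0.713 and 0.212 TPM and then 6.48, 5.45 and 1.10 TPM (log2 fold change 3.001, SE 0.57, edgeR adjusted p = 0.00572). *Ier3* was at 76.5, 117 and 126 TPM and then 1444, 1527 and 185 TPM (log2 fold change 2.88, SE 0.58, edgeR adjusted p = 0.00748). At an unadjusted p under 0.05 there were 1 lower and 2 higher, against 16.3% and 16.6% of all genes. DESeq2 called 0 lower and 2 higher, against 8.66% and 5.88%. The 4 feedback genes, *Gab2*, *Etv1* and *Ier3* shared the direction of the summed macrophage markers between the groups. Their order among libraries differed from that of the full sum. In dCas9-KRAB-En5 replicate 3 the marker sum was 16630 TPM, above the 13870 TPM of replicate 2, while all 7 genes were lowest there of the 3. Without *Lyz2* the sums in dCas9-KRAB-En5 replicates 1, 2 and 3 were 8963, 6935 and 5626 TPM. Replicate 3 was then lowest in the sum as well. The part of the macrophage markers in these results was not tested. Without dCas9-KRAB replicate 1, 2 or 3 in turn, none of the adaptors, feedback regulators and ERK targets was called. The higher calls over all genes dropped in these settings too, from 219 to 6, 20 and 23.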

How the data were processed

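Poly-A RNA from 3 dCas9-KRAB and 3 dCas9-KRAB-En5 samples was sequenced in paired ends. Per the study's methods, the authors aligned reads to GRCm38/mm10 with HISAT2 2.2.1 and counted genes with featureCounts. The annotation release and strand setting are not given in the sources used here. The deposited files hold raw counts per gene and TPM per gene that the authors derived from them. Genes listed in no row of a library were set to 0. The 10 receptors and the gene lists were chosen with earlier results of these data known.

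Counts were fitted with edgeR 4.0.16 in R 4.3.3 by the quasi-likelihood test, with condition alone, TMM scaling and filterByExpr (minimum count 10, minimum total 15), which left 14378 of 23231 genes. Adjusted p-values are Benjamini-Hochberg over all 14378, and "edgeR adjusted p" means these. A gene was said to rise or fall where the adjusted p was 0.01 or less and the log2 fold change 1 or more in size, the study's cutoffs. The SE was the absolute log2 fold change over the root of F, and intervals used the fit's degrees of freedom. The fit was tested on simulated data. Log2 fold changes are dCas9-KRAB-En5 over dCas9-KRAB.

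Named genes were the 10 receptors, each list's called genes (at most 6 in each direction with the smallest adjusted p), 9 fixed ligands, the 3 nearest profiles for *Csf1r* and *Pdgfra*, and *Myog*. A count of 0 allows up to 3 counts, 0.0405 to 0.0942 CPM by library, for counting error only. Same-numbered libraries correlated in their deviations from the group means (0.262, 0.214 and 0.290, against -0.340 to -0.0508 for the others). Deviations within a group sum to 0, which ties these correlations to each other. They thus do not settle whether the numbers pair the samples. The main fit left the numbers out, and the replicate block used them. No pair of replicates agreed within sampling noise (chi-square per degree of freedom 119 to 952). Positions come from GENCODE M21, and exon lengths there equalled those implied by counts and TPM for all 10 receptors. Of their 50-base exon words, 14.3% of *Csf1r* and at most 4.93% of the others occur in another gene. DESeq2 1.42.0, limma 3.58.1 on log2(TPM + 1) or log2(TPM + 0.1), other scalings, no filter, the replicate block and each library left out were the alternatives.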

Additional observations from a re-analysis of the deposited data

How the results depend on the processing

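Receptor calls were few, and their number moved with the setting. The 1 receptor called became 3 with no low-count filter (*Fgfr1*, -1.90, and *Insr*, 2.01, were added), and 0 to 3 with 1 library left out. *Axl* stayed between -4.60 and -3.41 in all 14 settings, with adjusted p from 1.3e-09 to 0.012. The 890 genes called became 586 by total counts, 2198 with no filter, 2390 with DESeq2, 1543 with the replicate block and 514 with limma on log2(TPM + 1), and 222 to 3921 with 1 library left out, the last without dCas9-KRAB-En5 replicate 3. The share of calls that were higher was 24.6%, and 11.9% by total counts, 45.7% with no filter, 40.5% with DESeq2, 36.7% with the block, 6.23% with limma on log2(TPM + 1) and 9.31% on log2(TPM + 0.1). The median log2 fold change of all genes, 0.08, was 0.18 with no filter or with limma on log2(TPM + 0.1) and -0.053 without dCas9-KRAB-En5 replicate 3.

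Other receptor tyrosine kinases called were 2, and 11 with no filter, 11 with DESeq2, 8 with the block, 0 and 1 with limma on log2(TPM + 1) and log2(TPM + 0.1), and 0 to 11 with 1 library left out. Ligands were 3, and 6, 6 and 5 with no filter, DESeq2 and the block, and 2 to 7 with 1 left out. Adaptors were 1, and 0 by total counts, 5, 5 and 3 with no filter, DESeq2 and the block, 0 with either limma fit, and 0 to 6 with 1 left out. Feedback regulators were 4, and 2 by total counts, 8 with no filter, 9 with DESeq2, 5 with the block, 2 with either limma fit, and 0 to 9 with 1 left out. ERK targets were 2, and 0 by total counts and with either limma fit, and 0 to 2 with 1 left out. The highest count of each of these left-out ranges came without dCas9-KRAB-En5 replicate 3, and the cause was not tested.

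Signs turned for *Pdgfra* with the block (-0.36), for *Csf1r* without dCas9-KRAB replicate 1 (-0.077, in a range up to 0.58 over the libraries left out), for *Gas6* without dCas9-KRAB-En5 replicate 3 (-0.10, in a range up to 1.21) and for *Hgf* with the block (0.48), with limma on log2(TPM + 0.1) (0.18), without dCas9-KRAB replicate 1 (2.199) and without dCas9-KRAB-En5 replicate 2 (0.23), in a range from -0.93 over the libraries left out. Over the named genes, 279 alternative values kept direction and call, 63 lost the call, 15 gained it and 7 turned. Beside the calls given in the text, the replicate block changed no call of a receptor. *Mertk* and *Fgfr4*, with at most 26 and 29 counts a library, were under the filter in the main fit. Both were tested with no filter. *Mertk* also passed the filter without dCas9-KRAB-En5 replicate 3 (1.47, edgeR adjusted p = 0.233).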
